A study of Mus musculus with 24 samples.

Results

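The kidney takes filtered phosphate back through a small set of membrane transporters and the scaffold proteins that hold them in the brush border. The genes described here are 9 of the 19426 rows of a table of kidney RNA levels, chosen by name: the sodium-phosphate cotransporters Slc34a1, Slc34a3, Slc20a1 and Slc20a2, the phosphate exporter Xpr1, and the scaffold genes Slc9a3r1, Slc9a3r2, Pdzk1 and Ezr. All 9 were listed above 0 in each of 24 libraries, and all passed the filter on low values. RNA was from whole kidneys of C57BL6 mice aged 13 weeks, with 8 libraries from each of 3 treatments, and each mouse received a single injection. One group received vehicle, one received hPTH(1-34), the amino-terminal fragment of human parathyroid hormone (PTH), and one received YKL-05-099, an inhibitor of salt-inducible kinases (SIKs) that also acts on other kinases. The interval to sacrifice was 1 hour for PTH and 3 hours for YKL-05-099, so agent and time cannot be told apart between these groups. The interval for vehicle is not given in the sources used here. The sources differ on the route of PTH, subcutaneous or intraperitoneal, and YKL-05-099 was given intraperitoneally, so that route may differ too. The comparisons asked how each agent changed these RNAs, and whether the SIK inhibitor and the hormone differed.

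The values are FPKM, read fragments scaled to transcript length and to each library's total, so that levels can be compared between genes. Depth was estimated at 5960000 to 7040000 fragments per library from the spacing of the low values, of which 75.7% to 83.9% came within 0.2 of a whole fragment number. The depth was chosen to bring these same values closest to whole numbers, so these shares are no separate check of it. Full transcript lengths were used, and the depth is approximate. In each library 16362 to 16866 genes were above 0. Kidney markers were present throughout, with summed levels of 4 thick limb markers at 1042 to 2395 FPKM and of 5 podocyte markers at 73.3 to 101 FPKM over all libraries. The label male was not borne out by the RNA: Xist, which marks an inactive X chromosome, ranged from 76.3 to 114 FPKM over 24 libraries, and the highest values of the Y-linked Ddx3y and Uty were 0.1 and 0.06 FPKM. With n = 6 per treatment in the series text and 8 libraries per group in the table, it is not known whether libraries stand for separate animals, and p-values measure only the spread of these libraries, part of which may be technical. In whole-kidney RNA, fewer cells of a type and less RNA per cell cannot be told apart.

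Phosphate leaves the proximal tubule lumen with sodium through NaPi-IIa (Slc34a1) and NaPi-IIc (Slc34a3), and PTH is known to lower this uptake mainly by removing the transporter proteins from the brush border, a step that RNA levels do not show. NHERF1 (Slc9a3r1), NHERF2 (Slc9a3r2) and PDZK1 are PDZ-domain proteins that bind the tails of transporters, and ezrin (Ezr) ties the NHERF proteins to actin. PiT-1 (Slc20a1) and PiT-2 (Slc20a2) are sodium-phosphate carriers found in many cell types, and XPR1 is the known phosphate exporter of mammalian cells.

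The sequences around the start sites of the member that changed most, Slc20a1, and of the most abundant member, Slc34a1, are shown because cAMP signalling, which PTH activates, acts partly through CREB, a factor that binds TGACG and its palindrome TGACGTCA. Windows of 300 bases (250 before to 50 after a RefSeq start site, build GRCm38.p6) were found for 8 of the 9 members, 11 windows in all, with none for Slc20a2. The shown windows of Slc20a1 are chr2:129198523-129198822 and chr2:129206846-129207145, both on the plus strand, and that of Slc34a1 is chr13:55399398-55399697, also on the plus strand. Capitals mark TGACG read on either strand, which appears as CGTCA when it lies on the other strand.
Slc20a1, first start: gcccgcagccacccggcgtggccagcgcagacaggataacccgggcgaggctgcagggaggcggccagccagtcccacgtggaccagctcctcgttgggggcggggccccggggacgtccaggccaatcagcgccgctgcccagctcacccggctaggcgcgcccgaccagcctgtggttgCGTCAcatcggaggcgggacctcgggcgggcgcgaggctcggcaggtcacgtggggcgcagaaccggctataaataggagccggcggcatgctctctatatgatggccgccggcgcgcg
Slc20a1, second start: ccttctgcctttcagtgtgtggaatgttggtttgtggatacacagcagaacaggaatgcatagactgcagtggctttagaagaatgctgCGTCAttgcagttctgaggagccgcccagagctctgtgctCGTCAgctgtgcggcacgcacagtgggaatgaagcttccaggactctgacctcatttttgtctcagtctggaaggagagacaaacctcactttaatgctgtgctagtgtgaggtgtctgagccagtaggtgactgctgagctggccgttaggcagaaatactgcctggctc
Slc34a1: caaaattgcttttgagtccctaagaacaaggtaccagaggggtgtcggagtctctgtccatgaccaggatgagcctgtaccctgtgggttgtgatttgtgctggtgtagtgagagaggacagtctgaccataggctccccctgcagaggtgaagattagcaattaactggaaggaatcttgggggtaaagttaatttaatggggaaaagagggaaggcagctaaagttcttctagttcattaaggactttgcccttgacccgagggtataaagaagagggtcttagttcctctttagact

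The first Slc20a1 window was 73% G or C with 36 CpG dinucleotides and held CGTCA with its first base 69 bases before the start. The second was 52% G or C and held CGTCA with first bases 161 and 121 bases before its start. The Slc34a1 window was 46.7% G or C with 2 CpG dinucleotides and held no TGACG on either strand. Across the members, TGACG was in 4 of 11 windows, in those of Slc20a1 (both), Xpr1 (4 bases before the start) and Pdzk1 (its second window, 83 bases before the start), and it was in 20.8% of all 32851 windows of this length. The palindrome TGACGTCA, which contains TGACG, was in 0 of 11 windows and in 1.79% of all. The letters TATAAA, the core of a TATA box, were in the first Slc20a1 window and in the Slc34a1 window, against 13.6% of all windows on either strand. A match is a description of the letters and not evidence of a bound site.

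In vehicle kidneys the mean levels of the 9 genes ran from 10.2 FPKM for Slc20a2 to 1176 FPKM for Slc34a1. Slc34a1 (gene 20505, chr13:55399622-55414695, GRCm38) ranked 32 of all genes by its vehicle mean, followed among the members by Pdzk1 (gene 59020, chr3:96829456-96870926, rank 75), Ezr (gene 22350, chr17:6738131-6782780, rank 272) and Slc9a3r1 (gene 26941, chr11:115163341-115181178, rank 420). The others were at means of 10.2 to 33.5 FPKM: Slc9a3r2 (gene 65962, chr17:24639281-24650305) ranked 2410, Slc34a3 (gene 142681, chr2:25228897-25234270) 4042, Slc20a1 (gene 20515, chr2:129198773-129211615) 4472, Xpr1 (gene 19775, chr1:155275657-155417444) 5388 and Slc20a2 (gene 20516, chr8:22476700-22569616) 6370. In this order every neighbour pair was separate in all 8 vehicle libraries except Slc34a3 and Slc20a1, where Slc34a3 was the higher in 7 of 8. Slc34a1 made up 95.2 ± 0.612% of the summed FPKM of the 5 transporter genes with vehicle (SD, n = 8). With PTH, Slc20a1 stood above Slc34a3 in 8 of 8 libraries. With YKL-05-099, Slc20a1 stood above Slc34a3 in 7 of 8 libraries, and Slc34a3 above Slc9a3r2 in 6 of 8.

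**Figure D1:**
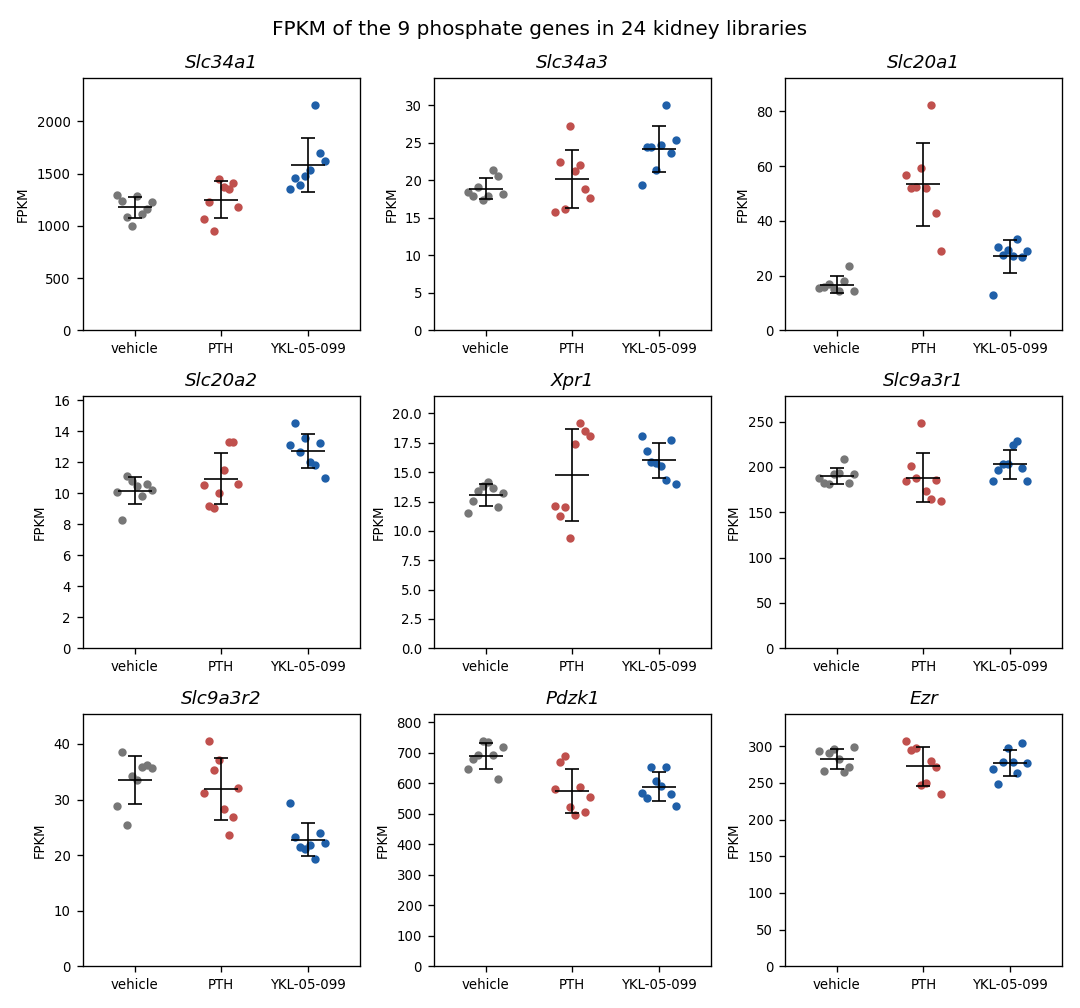
FPKM of each of the 9 genes (vertical axes from 0) in each library, with 8 points for vehicle, PTH and YKL-05-099 and bars for the mean and SD. All 8 PTH libraries lie above every vehicle library for Slc20a1, and all 8 YKL-05-099 libraries lie above every vehicle library for Slc34a1.

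PTH changed 2 of the 9 genes, 1 higher and 1 lower, in a test that called 17.1% of all 13991 genes (6% higher and 11.1% lower), so that the count of members is near that share. The balance of all calls depended on scaling, at 839 higher and 1558 lower as tested and 1097 and 1102 with median-ratio scaling. Slc20a1, the gene of PiT-1, rose 3.19-fold between means, and Pdzk1, the gene of a multi-PDZ scaffold of the brush border, fell to 0.834 of its vehicle mean. The main apical transporters were not called, with Slc34a1 at a log2 fold change of 0.08 and Slc34a3 at 0.08. Tests are from limma on log2(FPKM + 0.1), a scale that understates changes of low genes, and p-values were adjusted by Benjamini-Hochberg over all genes tested.

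Slc20a1 lay between 14.19 and 23.67 FPKM with vehicle (median 15.7) and between 28.95 and 82.16 with PTH (median 52.2). Every PTH library was above every vehicle library, and it was the 1 member of which this held, where 2.84% of all genes had groups that did not overlap (1.59% higher and 1.24% lower). The log2 fold change was 1.63 (SE 0.17, 95% CI 1.28 to 1.99, adjusted p = 1.6e-07, limma). The lowest PTH library, replicate 8 at 28.95 FPKM, was still above the highest vehicle library, replicate 7 at 23.67. Slc20a1 held 1.36 ± 0.289% of the summed transporter FPKM with vehicle and 3.98 ± 1.10% with PTH, and the share of Slc34a1 was 92.6 ± 1.14% with PTH (SD, n = 8 each).

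Its relative Slc20a2 (PiT-2) lay between 8.26 and 11.1 FPKM with vehicle and between 9.07 and 13.3 with PTH, ranges that overlap (log2 fold change 0.09, 95% CI -0.07 to 0.26, adjusted p = 0.478, limma). Within each library, Slc20a1 was 1.37 to 2.23 times Slc20a2 with vehicle and 2.73 to 6.18 times with PTH. This ratio does not depend on library scaling, and its mean log2 value differed by 1.54 between PTH and vehicle (adjusted p = 0.00093 over 24 ratio tests, exact permutation test, two-sided). The ratio of Slc20a1 to Slc34a1 differed by 1.56 on the log2 scale in the same test (adjusted p = 0.00093). Both unadjusted values were 0.00016, the smallest p that 8 against 8 libraries can give.

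The type II transporters overlapped between PTH and vehicle. Slc34a1 was at 1000.42 to 1297.37 FPKM with vehicle (median 1194) and at 954.06 to 1450.95 with PTH (median 1294). Its log2 fold change of 0.08 had a 95% CI of -0.11 to 0.27 (adjusted p = 0.612, limma), an interval that holds changes in both directions. Slc34a3 was at 17.36 to 21.38 FPKM with vehicle (median 18.3) and at 15.78 to 27.18 with PTH (median 20.1), with a 95% CI of -0.12 to 0.27 (adjusted p = 0.631, limma). The PTH libraries had the wider spread of both genes, with 4 of 8 above the vehicle maximum of Slc34a1 and 1 below its minimum.

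Xpr1 was at 11.56 to 14.12 FPKM with vehicle and took separate ranges with PTH, where replicates 1 to 4 lay at 12.13, 11.29, 12.01 and 9.43 FPKM and replicates 5 to 8 at 17.36, 19.15, 18.52 and 18.09. No PTH library lay between 12.13 and 17.36, and the labels name no batch for these replicates. The split was not particular to Xpr1. Slc20a2 was at 9.07 to 10.56 FPKM in PTH replicates 1 to 4 and, narrowly apart, at 10.61 to 13.3 in replicates 5 to 8. The summed FPKM of all genes was 489679 to 533157 in replicates 1 to 4 and 466356 to 489003 in replicates 5 to 8. The other members overlapped between these replicates, and the cause of the split was not tested. Over the whole group the log2 fold change was 0.13 (95% CI -0.11 to 0.37, adjusted p = 0.490, limma). The CV between libraries was 26.4% with PTH.

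Among the scaffold genes, Pdzk1 lay between 614.68 and 736.63 FPKM with vehicle (median 692) and between 494.42 and 687.6 with PTH (median 567). Of the PTH libraries, 6 of 8 were below the vehicle minimum. Its log2 fold change was -0.27 (SE 0.07, 95% CI -0.41 to -0.13, adjusted p = 0.0071, limma), and quantile normalization ended the call at -0.16 (adjusted p = 0.0778, with a range of 0.0020 to 0.0778 over the settings). The ratio of Pdzk1 to Slc34a1 had geometric means of 0.587 with vehicle and 0.460 with PTH, a log2 difference of -0.35 that did not pass (adjusted p = 0.082, exact permutation test), and without PTH replicate 3 it was -0.44 and passed (adjusted p = 0.0066, exact permutation test), with a range of 0.0066 to 0.137 over the libraries left out.

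The other scaffold genes overlapped between PTH and vehicle. Slc9a3r1, the gene of NHERF1, was at 180.89 to 208.35 FPKM with vehicle and 162.24 to 248.06 with PTH (log2 fold change -0.02, 95% CI -0.16 to 0.12, limma). Slc9a3r2, the gene of NHERF2, was at 25.36 to 38.57 FPKM with vehicle and 23.69 to 40.46 with PTH (-0.08, 95% CI -0.29 to 0.13, limma). Ezr was at 264.56 to 298.42 FPKM with vehicle and 235.23 to 306.44 with PTH (-0.06, 95% CI -0.17 to 0.06, limma). None of these was called, and their intervals reach 0.29 below to 0.13 above on the log2 scale.

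YKL-05-099 changed 6 of the 9 genes, 4 higher and 2 lower, where 17.7% of all genes tested were called (6.26% higher and 11.5% lower). These were 876 and 1605 genes, against 1164 higher and 1151 lower with median-ratio scaling. All 4 sodium-phosphate cotransporter genes rose, with log2 fold changes from 0.32 to 0.67, and the scaffold genes Slc9a3r2 and Pdzk1 fell. A score of proximal tubule markers was also higher in every YKL-05-099 library than in any vehicle library, and with that score as a covariate none of the 6 genes was called (adjusted p from 0.252 to 0.459, limma). The median log2 fold change over the 9 genes was 0.29, beside -0.05 over all genes tested. Both agents were set against the same 8 vehicle libraries, so the values for PTH and YKL-05-099 are not independent of each other.

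Slc34a1 lay between 1352.36 and 2153.5 FPKM with YKL-05-099 (median 1503), above all 8 vehicle libraries, whose highest was 1297.37. It was the 1 member whose groups did not overlap, against 4.74% of all genes (1.54% higher and 3.2% lower). The log2 fold change was 0.42 (SE 0.09, 95% CI 0.23 to 0.61, adjusted p = 0.0033, limma). The highest library, YKL-05-099 replicate 6 at 2153.5 FPKM, was well above the next at 1698.56, and leaving out each library in turn kept the fold change between 0.35 and 0.45. The summed FPKM of the 5 transporter genes was 1235 ± 103 with vehicle and 1665 ± 261 with YKL-05-099, and Slc34a1 held 95.1 ± 0.536% of it (SD, n = 8 each).

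Slc34a3 lay between 19.36 and 29.96 FPKM with YKL-05-099 (median 24.4), and 6 of 8 libraries were above the vehicle maximum of 21.38. The fold change on the log2 scale was 0.35 (95% CI 0.15 to 0.54, adjusted p = 0.0125, limma). The ratio of Slc34a3 to Slc34a1 had geometric means of 0.0160 with vehicle, 0.0160 with PTH and 0.0153 with YKL-05-099, and none of the 3 differences between groups passed (adjusted p from 0.48 to 0.98, exact permutation test).

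Of the type III carriers, Slc20a1 lay between 12.98 and 33.38 FPKM with YKL-05-099 (median 28.3), with 7 of 8 libraries above the vehicle maximum. The exception was YKL-05-099 replicate 1 at 12.98 FPKM, below every vehicle library. The log2 fold change was 0.67 (SE 0.17, 95% CI 0.31 to 1.02, adjusted p = 0.0089, limma) and 0.81 without that library. Slc20a2 lay between 11.01 and 14.5 FPKM (median 12.9), 7 of 8 libraries being above the vehicle maximum of 11.1, with a log2 fold change of 0.32 (95% CI 0.16 to 0.49, adjusted p = 0.0079, limma). The ratio of Slc20a1 to Slc20a2 differed from vehicle by 0.34 on the log2 scale and did not pass (adjusted p = 0.15, exact permutation test), and without YKL-05-099 replicate 1 the difference was 0.50 and passed (adjusted p = 0.0062, exact permutation test), with a range of 0.0062 to 0.281 over the libraries left out.

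Xpr1 lay between 13.96 and 18.07 FPKM with YKL-05-099 (median 15.8), with 7 of 8 libraries above the vehicle maximum of 14.12. Its log2 fold change was 0.29 (95% CI 0.05 to 0.53, adjusted p = 0.0849, limma), which was not called in the fit over 3 groups. A fit over vehicle and YKL-05-099 alone called it (adjusted p = 0.0022, limma), as did library weights (adjusted p = 0.0161, limma). Across settings its adjusted p ran from 0.0022 to 0.897.

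Slc9a3r2 was the member with the largest fall. With YKL-05-099 it lay between 19.22 and 29.46 FPKM (median 22.0), and 7 of 8 libraries were below the vehicle minimum of 25.36. The exception was again YKL-05-099 replicate 1. On the log2 scale the fold change was -0.55 (SE 0.10, 95% CI -0.76 to -0.34, adjusted p = 8.4e-04, limma). The related Slc9a3r1 lay between 184.19 and 228.96 FPKM and overlapped the vehicle range (0.09, 95% CI -0.05 to 0.23, adjusted p = 0.380, limma). The ratio of Slc9a3r2 to Slc9a3r1 had geometric means of 0.175 with vehicle and 0.112 with YKL-05-099, a log2 difference of -0.65 (adjusted p = 0.0016, exact permutation test).

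Pdzk1 lay between 524.06 and 651.72 FPKM with YKL-05-099 (median 579), and 6 of 8 libraries were below the vehicle minimum of 614.68. Its log2 fold change was -0.23 (SE 0.07, 95% CI -0.37 to -0.09, adjusted p = 0.0210, limma). The call ended with median-ratio scaling (-0.18, adjusted p = 0.0917, limma) and with quantile normalization (-0.09, adjusted p = 0.357, limma), and over all settings the adjusted p ran from 0.0028 to 0.357. The ratio to Slc34a1, free of scaling, was 0.499 to 0.736 with vehicle and 0.302 to 0.469 with YKL-05-099, ranges that do not overlap. It differed by -0.65 on the log2 scale (adjusted p = 0.00093, exact permutation test). The ratio of Slc9a3r1 to Slc34a1 also differed, by -0.33 (adjusted p = 0.0016, exact permutation test). Slc34a1 itself rose (log2 fold change 0.42), so a lower ratio to it does not show that Pdzk1 or Slc9a3r1 fell. Ezr lay between 248.86 and 303.64 FPKM and was not called (-0.03, 95% CI -0.15 to 0.08, adjusted p = 0.738, limma).

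**Figure D2:**
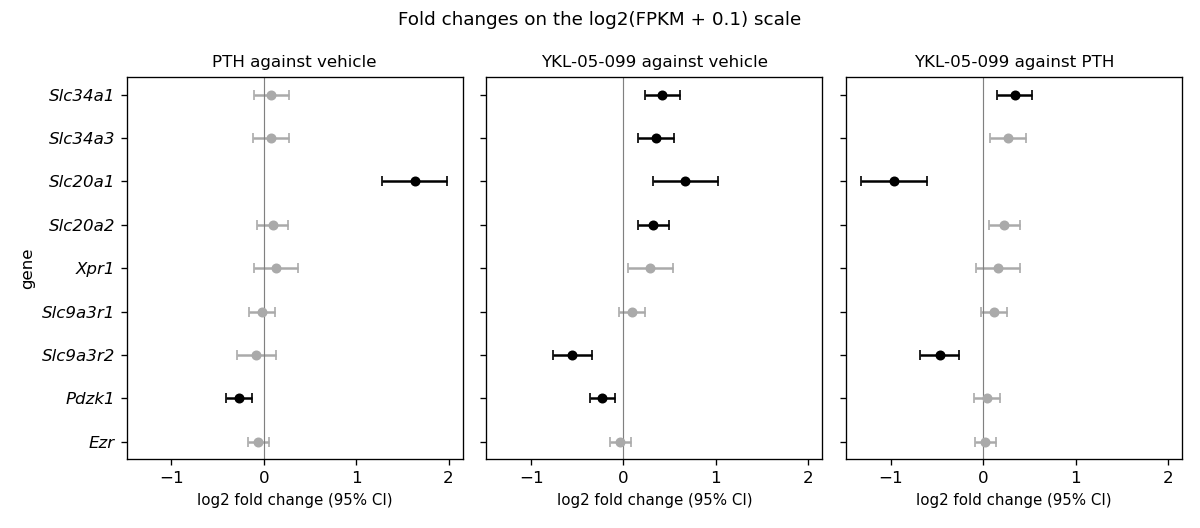
Log2 fold changes of the 9 genes on the log2(FPKM + 0.1) scale with 95% confidence intervals from limma, in 3 comparisons, black where the adjusted p is below 0.05 and grey where it is not. Slc20a1 stands at 1.63 for PTH and 0.67 for YKL-05-099, and Slc9a3r2 at -0.55 for YKL-05-099.

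**Figure D3:**
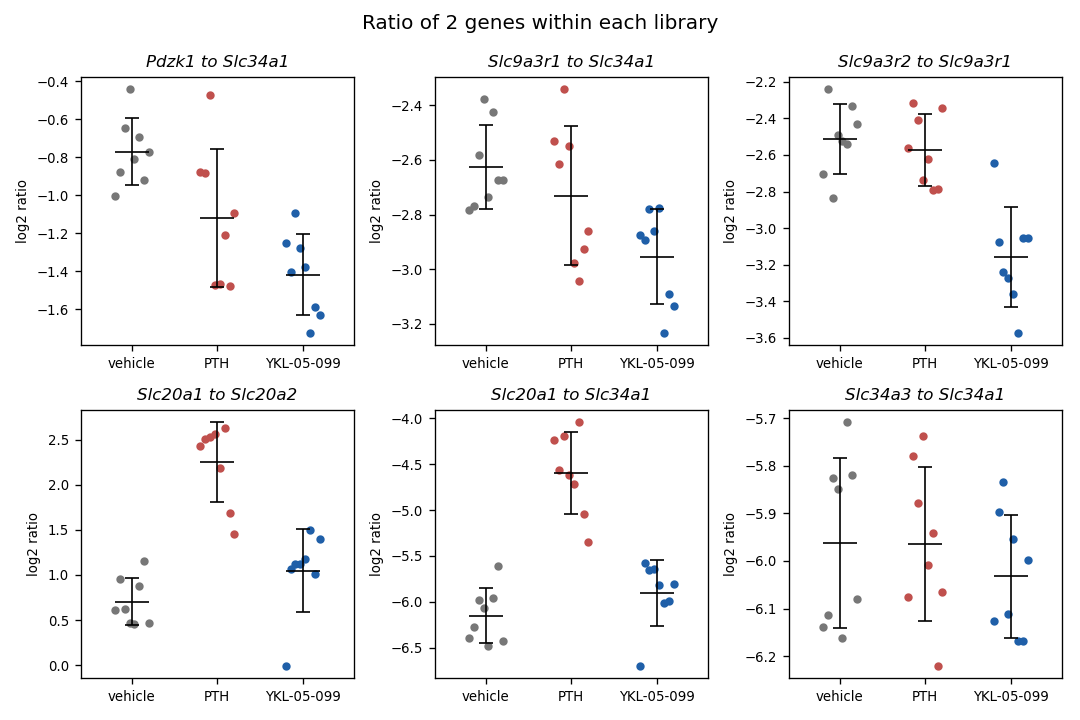
Log2 ratios of 6 pairs of genes within each library (vertical axes), 8 points per group, with bars for the mean and SD. For the ratio of Pdzk1 to Slc34a1 all YKL-05-099 libraries lie below all vehicle libraries, and the ratio of Slc34a3 to Slc34a1 overlaps in all 3 groups.

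Set directly against each other, the agents differed in 3 of the 9 genes, 1 higher and 2 lower with YKL-05-099 than with PTH, where 6.42% of all genes were called (2.84% higher and 3.58% lower). In 0 of the 9 were these groups fully separate, against 0.893% of all genes. Slc20a1 was lower with YKL-05-099 by a log2 difference of -0.97 (SE 0.17, 95% CI -1.32 to -0.61, adjusted p = 7.8e-04, limma), and 4 of 8 YKL-05-099 libraries were below the PTH minimum of 28.95 FPKM. Slc9a3r2 was also lower (-0.47, 95% CI -0.68 to -0.26, adjusted p = 0.0052, limma), with 6 of 8 libraries below the PTH minimum of 23.69. Slc34a1 was higher (0.34, 95% CI 0.15 to 0.53, adjusted p = 0.0266, limma), with 6 of 8 libraries above the PTH maximum of 1450.95.

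The Slc34a1 difference between the agents was close to the threshold. It was lost without PTH replicate 1, PTH replicate 3, YKL-05-099 replicate 6 or YKL-05-099 replicate 7, each in turn, with adjusted p from 0.0520 to 0.0600 and fold changes from 0.27 to 0.32 (limma), and over the other settings its adjusted p ran from 0.0225 to 0.317. For Pdzk1 the agents differed by 0.04, with a 95% CI of -0.10 to 0.18, and for Ezr by 0.02, with a 95% CI of -0.09 to 0.14. The ratio of Slc20a1 to Slc34a1 differed by -1.31 on the log2 scale, that of Slc20a1 to Slc20a2 by -1.20 and that of Slc9a3r2 to Slc9a3r1 by -0.59 (adjusted p from 0.00093 to 0.0019, exact permutation test).

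Markers of the proximal tubule, the segment in which Slc34a1, Slc34a3, Pdzk1 and Slc9a3r1 are known to be made, moved with YKL-05-099. A score of 10 early proximal markers (mean log2(FPKM + 0.1), among them Slc5a2, Slc5a12, Gatm, Lrp2, Cubn, Slc7a7 and Slc7a8) was 7.41 to 7.60 with vehicle, 7.37 to 7.89 with PTH and 7.66 to 7.93 with YKL-05-099, so that vehicle and YKL-05-099 did not overlap. Within the PTH group the score was 7.37 to 7.49 in replicates 1 to 4 and 7.60 to 7.89 in replicates 5 to 8. Of the 10 markers, 3 rose with YKL-05-099 and 0 fell, namely Gatm (0.48), Slc7a7 (0.52) and Slc7a8 (0.54), and 1 rose with PTH, Slc7a7 (0.28). The summed FPKM of these markers did overlap, at 6438 to 7718 with vehicle, 5973 to 7777 with PTH and 6142 to 8381 with YKL-05-099. Of 6 markers of the late proximal segment, 2 rose with YKL-05-099 and 1 with PTH. Beside these counts, 6.26% of all genes tested rose with YKL-05-099 and 6% with PTH.

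With the score as a covariate, 0 of the 6 member calls for YKL-05-099 remained, and calls over all genes fell from 876 higher and 1605 lower to 129 and 41. Slc34a1 then stood at 0.24 (adjusted p = 0.338), Slc34a3 at 0.24 (adjusted p = 0.379), Slc20a1 at 0.52 (adjusted p = 0.292), Slc20a2 at 0.17 (adjusted p = 0.459), Slc9a3r2 at -0.27 (adjusted p = 0.256) and Pdzk1 at -0.22 (adjusted p = 0.252, all limma). Over the settings the adjusted p ran from 3.7e-04 to 0.338 for Slc34a1, from 7.6e-04 to 0.379 for Slc34a3, from 3.7e-04 to 0.292 for Slc20a1, from 0.0012 to 0.459 for Slc20a2, from 6.1e-05 to 0.256 for Slc9a3r2 and from 0.0028 to 0.357 for Pdzk1, whose call also ended under 2 scalings. Since the score separates these groups, treatment and score cannot be told apart in that fit. For PTH, Slc20a1 stood at 1.59 and Pdzk1 at -0.27 with the score, and both calls were kept.

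**Figure D4:**
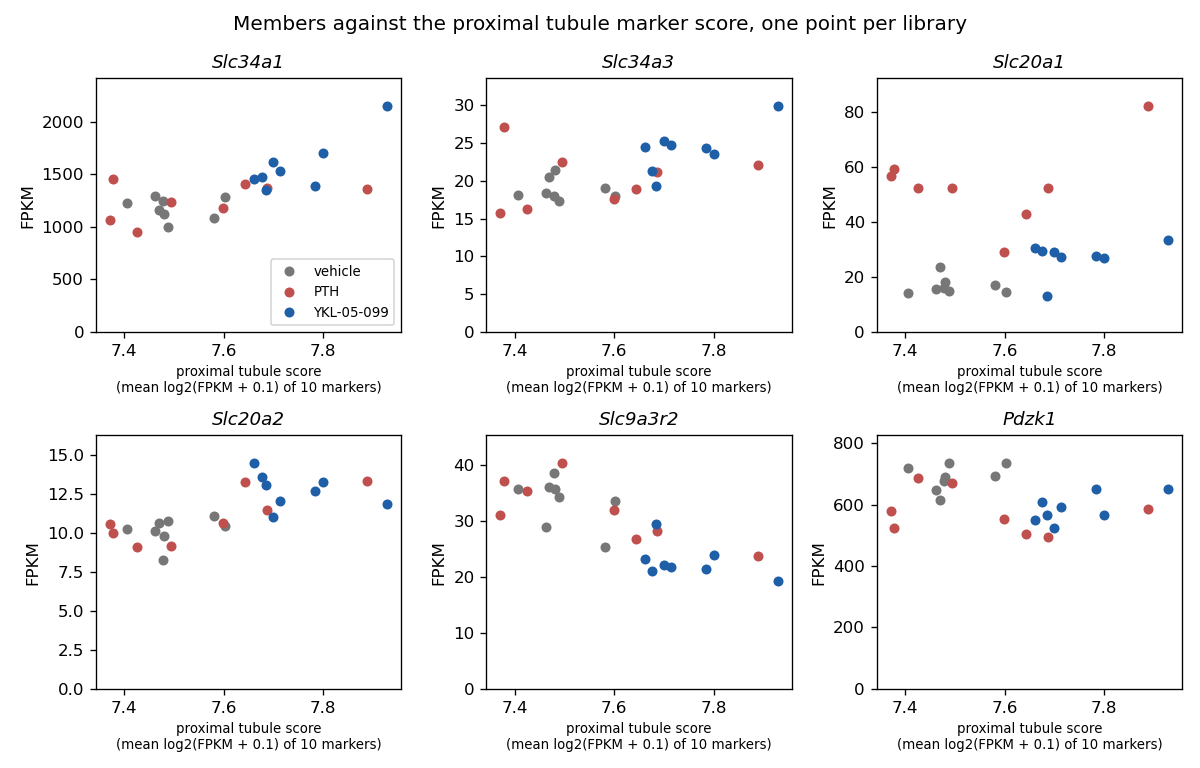
FPKM of 6 of the genes (vertical axes from 0) against the score of 10 proximal tubule markers (horizontal axes, mean log2(FPKM + 0.1)), 1 point per library. The YKL-05-099 libraries lie at scores of 7.66 to 7.93 and the vehicle libraries at 7.41 to 7.60.

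Some markers of other cell types were also called. Of all genes tested, 11.5% were called lower with YKL-05-099, and 11.1% lower and 6% higher with PTH. Between the agents, 3.58% were lower with YKL-05-099. With YKL-05-099, fibroblast markers fell in 3 of 5 (summed FPKM 39.7 to 63 with vehicle and 21.8 to 59.7 with YKL-05-099), intercalated cell markers in 2 of 5 (147 to 184 and 114 to 153) and distal convoluted tubule markers in 2 of 4 (441 to 614 and 423 to 618). With PTH, 2 of 4 distal convoluted tubule markers fell and 1 of 5 tested macrophage markers, Csf1r, rose. Of 6 endothelial markers 1 was called lower with YKL-05-099 (149 to 327 and 94.7 to 234), a count near the share of all genes called lower. Their median log2 fold change was however -0.38, beside -0.05 over all genes tested, and the unadjusted p was below 0.05 for 4 of them (limma). Of 5 tested macrophage markers, 2 were lower with YKL-05-099 than with PTH. The part of these cell types in the member results was not tested. Urothelial markers varied within every group, with sums of 2.32 to 30.27 FPKM for vehicle, 1.29 to 59.46 for PTH and 1.74 to 32.47 for YKL-05-099, and without the 4 libraries with the highest urothelial score the Slc34a1 difference between the agents was no longer called, at a difference of 0.34 as over all libraries (adjusted p = 0.0761, limma), while the other member calls were kept.

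Further genes of phosphate biology came from lists chosen with earlier results of these data known, and their median log2 fold changes stand beside -0.05 over all genes for each agent against vehicle. Their counts of calls stand beside 6% of all genes called higher and 11.1% lower with PTH, and 6.26% and 11.5% with YKL-05-099. For other phosphate carriers the median was 0.14 with PTH and 0.14 with YKL-05-099. Of 12 tested other phosphate carriers, 1 rose with PTH, Slc25a3, the mitochondrial phosphate carrier, from 359.51 to 419.09 FPKM with vehicle to 401.76 to 503.43 (0.24, adjusted p = 0.0031, limma). With YKL-05-099, 3 rose and 0 fell. Slc25a25, a mitochondrial ATP-magnesium/phosphate carrier, was at 31.42 to 74.09 FPKM with vehicle and 32.22 to 207.17 with YKL-05-099 (medians 53.1 and 168, log2 fold change 1.50, adjusted p = 0.0040, limma). Its relative Slc25a23 was at 0.17 and Slc17a4, a low gene with a vehicle median of 1.05 FPKM, at 0.64. The abundant Slc17a1, a transporter of the proximal tubule brush border, had medians of 172, 195 and 190 FPKM for vehicle, PTH and YKL-05-099 and was not called. Slc34a2 (NaPi-IIb), the type II transporter known from gut and lung, had medians of 0.935, 1.09 and 1.33 FPKM and was not called.

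Of 10 genes whose proteins bind these PDZ scaffolds (medians -0.16 with PTH and 0.02 with YKL-05-099), 3 fell with PTH, where 11.1% of all genes fell, and 0 rose. They were the organic cation and carnitine transporters Slc22a4 (-0.48, adjusted p = 2.6e-04) and Slc22a5 (-0.25, adjusted p = 0.0066) and the exporter Abcc2 (-0.26, adjusted p = 0.0162, all limma). Slc22a4 was at 27.8 to 40.08 FPKM with vehicle, 18.46 to 27.88 with PTH and 22.38 to 28.86 with YKL-05-099. With YKL-05-099 it was the 1 gene of the list that fell (-0.31, adjusted p = 0.0119, limma). Slc9a3 (NHE3), the sodium-proton exchanger from which the NHERF proteins take their name, had medians of 22.7, 21.1 and 24.2 FPKM and was not called, nor was the PTH receptor Pth1r at 144, 133 and 143. Of 9 partners of ezrin and the scaffolds (medians -0.07 and -0.10), among them the ezrin relatives Rdx and Msn and the PDZK1-interacting Pdzk1ip1, 0 were called by limma in any comparison, and the unadjusted p was below 0.05 for 3 with PTH, 2 with YKL-05-099 and 1 between the agents.

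Inositol pyrophosphates are the signals that XPR1 senses through its SPX domain. Of 8 tested genes of their synthesis and turnover (medians -0.04 and -0.11), 1 fell with PTH, the kinase gene Ip6k2 (-0.37, adjusted p = 0.0079, limma), from 22.45 to 36.72 FPKM with vehicle to 15.49 to 27.62. With YKL-05-099, 1 fell, Nudt4 (-0.28, adjusted p = 0.0145, limma), whose product breaks inositol pyrophosphates down. Between the agents, 2 of 8 were lower with YKL-05-099 than with PTH, Ip6k1 (-0.22) and Ippk (-0.32), where 3.58% of all genes were. None rose. With each agent 1 of 8 is near the share of all genes called lower, 11.1% with PTH and 11.5% with YKL-05-099.

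Of 9 tested genes of hormonal phosphate control (medians 0.13 and 0.18), 2 rose and 1 fell with PTH, and 3 rose and 0 fell with YKL-05-099. Sgk1, a kinase that regulates tubular transporters, was at 26.94 to 88.4 FPKM with vehicle, 59.35 to 147.65 with PTH and 58.6 to 113.84 with YKL-05-099, with log2 fold changes of 0.78 (adjusted p = 0.0056) and 0.56 (adjusted p = 0.0419, limma). The FGF23 receptor gene Fgfr1 stood at 0.18 with PTH (adjusted p = 0.0494) and 0.27 with YKL-05-099 (adjusted p = 0.0053, limma). Fgfr4 rose with YKL-05-099 (0.36), and Fgfr3 fell with PTH (-0.24) and was higher with YKL-05-099 than with PTH (0.28). Klotho (Kl), the coreceptor of FGF23, had medians of 105, 113 and 119 FPKM and was not called.

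The sodium gradient that drives the cotransporters comes from the sodium pump. Its beta subunit gene Atp1b1 lay between 1276 and 1405 FPKM with vehicle, 1170.0 and 1482 with PTH and 1383 and 1630.2 with YKL-05-099, and was higher with YKL-05-099 than with PTH (0.21, adjusted p = 0.0169, limma). Of the 3 genes of pyrophosphate handling, Enpp1, Ank and Alpl, 0 were called by limma in any comparison, and the unadjusted p was below 0.05 for 0 with PTH, 1 with YKL-05-099 and 1 between the agents.

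**Figure D5:**
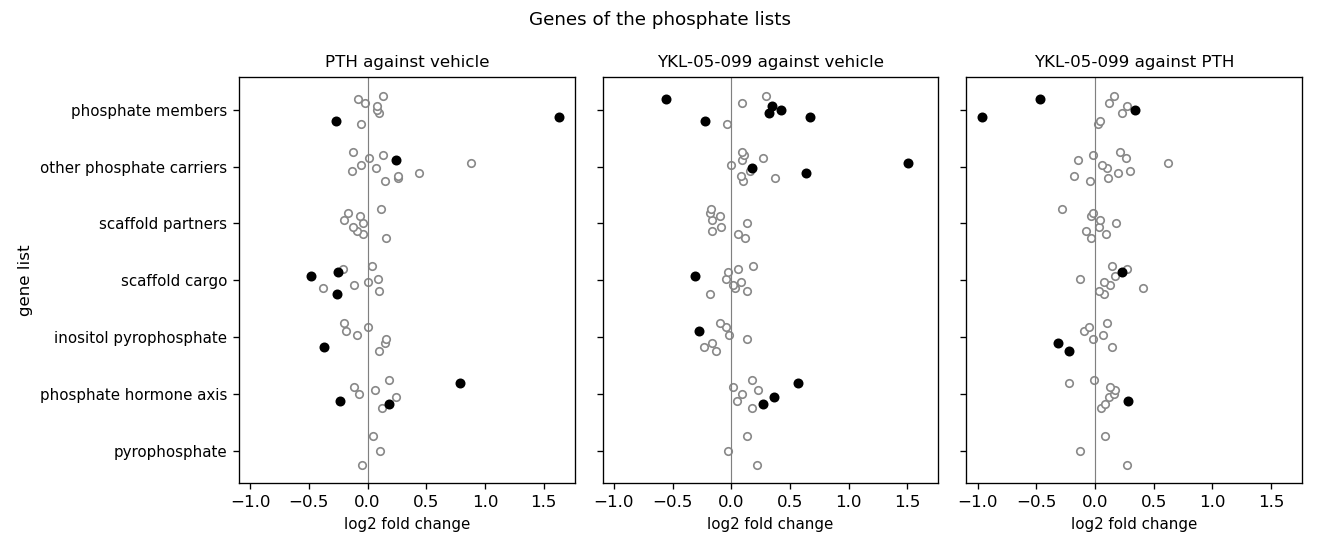
Log2 fold changes (horizontal axes, log2(FPKM + 0.1) scale) of each tested gene of the phosphate lists (rows) in 3 comparisons, filled where the adjusted p is below 0.05 (limma). The member with the largest fold change for PTH is Slc20a1 at 1.63, and the point at 1.50 for YKL-05-099 is Slc25a25.

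Genes whose levels ran most like those of 3 members over the 24 libraries were found by Pearson's r of log2 values, given as a description, since libraries of 3 treatments share their group differences. For Slc34a1 these were Rogdi (0.91), G6pc3 (0.90) and Slc46a1 (0.86). For Slc20a1 they were Maff (0.95), Fosl2 (0.93) and Dos (0.91), and for Pdzk1 they were Lrpap1 (0.88), Psma6 (0.88) and Gm7092 (0.87). With the group means taken out, the highest were G6pc3 (0.84), Slc25a10 (0.82) and Strada (0.82) for Slc34a1, Sik1 (0.82), Ier2 (0.81) and Cebpb (0.80) for Slc20a1, and Lrpap1 (0.84), Gm7092 (0.82) and Psma6 (0.80) for Pdzk1.

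Among the members themselves, 36 pairs were correlated within each group of 8 libraries. Of 108 such correlations 0 passed adjustment over all of them (permutation p by pairings), 18 had an unadjusted p below 0.05, and 4 pairs were positive and 5 negative in all 3 groups. Signs can coincide over 3 groups by chance, and how often was not tested, so these counts are a description. Slc34a1 and Slc34a3 had r of -0.13 with vehicle (rho -0.11), 0.80 with PTH (rho 0.74) and 0.80 with YKL-05-099 (rho 0.64), and without the 2 libraries farthest from the median of Slc34a1 they were -0.91, 0.56 and 0.65. The adjusted p of r was 0.931, 0.250 and 0.250 in the same order (exact permutation test), and those of rho were 0.990, 0.441 and 0.472.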

How the data were processed

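Whole-kidney RNA libraries were sequenced as DNA nanoballs (BGISEQ500). The authors deposited FPKM values, rounded to 2 decimals, for 19426 genes in 24 libraries, 8 per treatment. Tools listed in the submitters' processing notes are STAR 2.7.2b, RSEM 1.3.0 and DESeq2, and builds are mm10 and GRCm38. The gene annotation, any filters and the use of strand are not given in the sources consulted, so overlapping genes may share reads. Because FPKM depends on the library total, changes in abundant genes can move the values of others. The 1 value column that duplicates PTH replicate 3 was not used. Symbols of 25 genes turned into dates were restored from their identifiers, and 2 list genes (Fgf23, Adgre1) were not matched.

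Values were analysed as log2(FPKM + 0.1) for the 13991 genes averaging 0.5 FPKM or more, in one limma 3.58.1 model with trend over 3 groups (R 4.3.3), a gene being called at a Benjamini-Hochberg adjusted p below 0.05. Ratios within libraries were tested by exact permutation over the 16 libraries compared (Python 3.11.15, scipy 1.17.1). A test for FPKM is not given in the sources used here. The model was tested on simulated data. Named genes were the members, called list genes, up to 3 abundant list genes that were not called, and 3 genes most like each of 3 members, and not every gene this rule allows is reported here. The members and lists were chosen with earlier results of these data known. Alternatives were the pseudocount, filter, scaling, library weights, the replicate block, a 2-group fit, the proximal tubule score as a covariate, and leaving out libraries.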

Additional observations from a re-analysis of the deposited data

Results flagged for a closer look

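In 7 of the 27 sets of 8 values (9 genes in 3 groups), 1 library lay far from the others of its group, by the size of its gap relative to the whole range of the group, and chance flags about 1 in 20 groups. Slc34a1 was at 2153.5 FPKM in YKL-05-099 replicate 6, against 1352.36 to 1698.56 in the other 7 libraries. Slc20a1 was at 23.67 FPKM in vehicle replicate 7, against 14.19 to 17.98, and at 12.98 in YKL-05-099 replicate 1, against 26.7 to 33.38. Slc20a2 was at 8.26 FPKM in vehicle replicate 2, against 9.8 to 11.1. Slc9a3r1 was at 208.35 FPKM in vehicle replicate 6, against 180.89 to 192.83, and at 248.06 in PTH replicate 4, against 162.24 to 201.34. Slc9a3r2 was at 29.46 FPKM in YKL-05-099 replicate 1, against 19.22 to 23.99. YKL-05-099 replicate 1 was thus apart from its group for both Slc20a1 and Slc9a3r2.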

How the results depend on the processing

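PTH called 1 member higher under every setting, and 1 lower except with quantile normalization (0). YKL-05-099 called 4 higher, 5 in a fit over the 2 groups and with library weights (Xpr1 added in both), 0 with the proximal tubule score as a covariate and 4 to 5 without each library in turn, and 2 lower, which became 1 with median-ratio scaling, 1 with quantile normalization and 0 with the covariate. Between the agents, 1 was higher, against 0 with no filter (Slc34a1 at 0.34 as in the fit reported, adjusted p = 0.0560), 0 in a fit over the 2 groups (0.34, adjusted p = 0.0740), 0 with the covariate (0.20, adjusted p = 0.317), 0 without the 4 libraries with the highest urothelial score (0.34, adjusted p = 0.0761), 2 with library weights (Slc34a3, 0.29, adjusted p = 0.0312, limma), and 0 to 2 without each library in turn, and 2 were lower, against 1 with the covariate (Slc9a3r2 -0.26, adjusted p = 0.165). Slc34a3 was gained without PTH replicate 4 or YKL-05-099 replicate 1, and Slc20a2 without PTH replicate 6 or PTH replicate 7. Xpr1 with YKL-05-099 was gained without PTH replicate 4 (adjusted p = 0.0407). Ratios that passed numbered 2 for PTH (2 to 3 without each library), 3 for YKL-05-099 (3 to 5) and 3 between the agents (3 in each), the gains being Pdzk1 to Slc34a1 without PTH replicate 3, Slc20a1 to Slc20a2 and to Slc34a1 (0.37) without YKL-05-099 replicate 1, and Ezr to Slc9a3r1 (-0.16) without vehicle replicate 6. The cause of these changes was not tested.

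Signs turned for members that were not called. These were, for PTH, Ezr with quantile normalization (0.0013) and Slc9a3r1 with median-ratio scaling (0.021), quantile normalization (0.015) and the covariate (0.0026), for YKL-05-099, Ezr with median-ratio scaling (0.014) and quantile normalization (0.027) and Xpr1 with the covariate (-0.045), and between the agents Xpr1 with the covariate (-0.091). Without each library in turn, Slc9a3r1 for PTH ran from -0.081 to 0.0062 and Ezr between the agents from -0.0051 to 0.049. For PTH, the log2 ratio differences of Slc34a3 to Slc34a1 ran from -0.034 to 0.035 (0.045 without the urothelial libraries), Xpr1 to Slc34a1 from -0.0061 to 0.17 and Ezr to Slc9a3r1 from -0.067 to 0.044. Replicate numbers did not pair the libraries (correlation of same-numbered libraries -0.20 to 0.20, median 0.02, over 24 pairs), and the replicate block changed no member call (Slc20a1 1.63 for PTH, Slc9a3r2 -0.55 for YKL-05-099, adjusted p = 0.0022). Over all genes, calls for PTH against vehicle were 839 higher and 1558 lower, against 1097 and 1102 with median-ratio scaling. Calls for YKL-05-099 against vehicle were 876 and 1605, against 1164 and 1151 with median-ratio scaling, 1156 and 1394 with quantile normalization, 1347 and 2487 with library weights and 129 and 41 with the covariate. Between the agents they were 397 and 501, against 231 and 288 in a fit over the 2 groups, 255 and 180 with the covariate, and 278 lower without the urothelial libraries, and 289 to 513 and 340 to 689 without each library in turn.

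FPKM hold no exact counts. At the estimated depth, about 267 fragments of Slc20a2 per library give a counting CV of 6.12%, beside 8.56% to 15.1% between libraries. For Slc34a1, about 21971 fragments give 0.675%, beside 8.89% to 16.2%.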
